A study of Rattus norvegicus with 18 samples.

Results

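The genes described here encode the proteins of the cytosolic ribosome. They were chosen by name from the rat gene tables: every row named Rpl or Rps followed by a number, with an optional letter a, x or y, and the rows named Rplp0, Rplp1, Rplp2 and Rpsa. This gave 82 of 32882 rows, which carry 74 different names. Of the 82 rows, 50 belong to the large subunit (Rpl) and 32 to the small subunit (Rps). Within each table of 6 libraries, rows whose normalized counts averaged at least 10 entered the tests, which left 56 rows in the parenchyma Ets1 table, 54 in the spleen Ets1 table and 56 in the spleen Grk2 table. A total of 64 rows passed in at least 1 table, 49 passed in all 3, and 18 passed in none.

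The libraries come from T-MBP cells, CD4+ T cells of Lewis rats that recognize myelin basic protein and cause experimental autoimmune encephalomyelitis, a model of multiple sclerosis, after transfer into a rat. Cells that had been expanded in culture and carried a fluorescent protein were electroporated with Cas9 and a guide RNA against Ets1, a transcription factor of lymphoid cells, or against Grk2, a kinase that desensitizes G-protein-coupled receptors. Control cells received a non-targeting (NT) guide, carry the genotype WT in the sample labels, and were transferred together with the KO cells. In the paper's co-transfers KO cells carried a green (EGFP) and control cells a blue (BFP) fluorescent protein. The reporter therefore cannot be told apart from the edit. KO and control cells were sorted on day 3 after transfer, and RNA was counted at the 3′ ends of transcripts in 18 libraries, 3 in each of 6 groups. The Ets1 experiment has KO cells with their controls from spinal cord parenchyma and, in a separate table, from spleen, and the Grk2 experiment has both from spleen alone. The labels do not say which libraries share an animal, so p-values measure the spread between these libraries. That spread is pooled over genes of similar level, in part or, in the parenchyma, wholly. In bulk RNA fewer cells of a kind cannot be told apart from less RNA per cell.

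A ribosome joins a small subunit, which reads the mRNA, to a large subunit, which forms the peptide bond. Each subunit is an RNA core covered by proteins that are made, with few exceptions, in equal numbers. Ribosomal protein mRNAs are among the most abundant of a growing cell, and many begin with a run of pyrimidines at the 5′ end (the TOP motif) through which their translation follows mTOR signalling. Mammalian genomes also hold many processed copies of these genes, which lack introns and can take up reads of the parent gene. T cells build up ribosomes when they are activated and leave the resting state.

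Promoters of these genes were read from RefSeq (assembly GRCr8), from 250 bases before to 50 bases after the annotated start, for 59 of the 74 names (60 promoters). The core of the ETS family motif, CCGGAA on either strand, was present in 31 of the 60 promoters (51.7%), against 15% of all 33469 promoters. It was found in 20 of 37 promoters of the large subunit and in 11 of 23 of the small subunit. Among genes on their RefSeq chromosome that passed the Ets1 tests given further down, 1 of 5 promoters (spleen, higher) and the 1 promoter found (parenchyma, lower) held it. Whether the ETS core goes with these changes was not tested. A run of at least 5 pyrimidines, counted from a C within 10 bases of the start, was present in 45 of the 60 (75%), against 27.8% of all promoters. The motif AAGATGGC on either strand, the core bound by YY1, was present in 4 of the 60 (6.67%), against 3.17% of all. These are matches of letters in a window and not measured binding sites. The windows of 60 bases below, 40 before the start and 20 from the start on, belong to 6 genes whose expression tests are given further down and show how the starts differ. Each is printed 5′ to 3′ on the strand of the gene, and capitals mark the pyrimidine run as counted from that C.
Rpsa, chr8:128728839-128728898, plus strand: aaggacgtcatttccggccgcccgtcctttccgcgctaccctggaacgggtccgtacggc
Rps3, chr1:163195757-163195816, minus strand: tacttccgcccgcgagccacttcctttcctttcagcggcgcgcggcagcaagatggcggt
Rps24, chr16:96477-96536, plus strand: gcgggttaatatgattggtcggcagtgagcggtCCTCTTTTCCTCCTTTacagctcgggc
Rps27, chr2:177964587-177964646, minus strand: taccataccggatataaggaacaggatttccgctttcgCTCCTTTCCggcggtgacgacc
Rpl24, chr11:58128386-58128445, minus strand: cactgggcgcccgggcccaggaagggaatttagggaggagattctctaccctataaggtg
Rpl34, chr2:221962264-221962323, minus strand: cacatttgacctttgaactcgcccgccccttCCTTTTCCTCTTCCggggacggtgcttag
With the first transcribed base counted as 1 and the base before it as -1, the pyrimidine run was counted from -7 in Rps24 (16 bases), from -2 in Rps27 (9 bases) and from -9 in Rpl34 (14 bases). In Rpl34 the pyrimidines reach further upstream than the counted run, beyond 10 bases from the start. Rpsa, Rps3 and Rpl24 had no run that was counted in this way. In Rpsa and Rps3 a pyrimidine run that began further upstream ended within 10 bases of the start and was left out. The ETS core began at -29 in Rpsa, at 4 in Rps27 and at 2 in Rpl34. No promoter entry was found for Rpl15.

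Sequencing depth ranged from 898092 to 2248258 reads on genes per library, with 9635 to 10967 genes holding at least 1 read. All 8 T cell markers (Cd3e, Cd3d, Cd3g, Cd247, Cd4, Cd2, Cd5 and Cd28) had a mean of at least 10 normalized counts in each table. Of 10 myeloid markers, 1 reached that mean in the parenchyma, where their summed level was 27.3 to 54.1 normalized counts in control and 47.5 to 67.7 in Ets1-KO libraries, and none did in the spleen, where the sums were at most 11.6. No B cell or neural marker reached it in any table, and of the erythroid markers 1 did, in the spleen Ets1 table, with sums of 1.57 to 23.7 in control and 10.5 to 17.8 in KO libraries. Grk2 mRNA was at 158 ± 14.1 normalized counts (SD, n = 3) in control and 68.3 ± 17.4 in Grk2-KO cells (log2 fold change -1.22, SE 0.13, limma adjusted p = 1.76e-12). Ets1 mRNA was at 2400 ± 150.03 and 2551 ± 183 in control and Ets1-KO cells of the parenchyma (adjusted p = 0.56) and at 2077 ± 135 and 2000.1 ± 324 in the spleen (adjusted p = 0.85), and reads at the 3′ end do not show an edit elsewhere in the transcript.

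Reads on the 82 rows made up 1.85% to 2.74% of all reads on genes. They were concentrated on few rows, since the 10 most abundant rows held 54.7%, 59.8% and 54.2% of the ribosomal protein reads in the parenchyma Ets1, spleen Ets1 and spleen Grk2 tables. Among the highest means over the 18 libraries were those of Rpl15 (1935 normalized counts) and Rpl23 (1663) in the large subunit and that of Rps16 (1423) in the small subunit. The lowest means of rows that passed in a table were 11.4 for Rpl36a, 10.3 for Rpl36 and 7.34 for the chromosome 4 row of Rpl32, and 9.16 for Rps21, 8.13 for the chromosome 20 row of Rps10 and 6.84 for Rps2. Ribosomes hold these proteins in near equal numbers, whereas normalized counts are per gene, were not divided by length, and depend on how well the 3′ end of each gene could be assigned, so this order is one of counts and not of mRNA per cell.

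Some members of the ribosome could not be followed. Rplp1 and Rplp2, which form the lateral stalk of the large subunit with Rplp0, had means of 1.61, 5.03 and 9.95 (Rplp1) and 1.52, 2.34 and 0 (Rplp2) normalized counts in the parenchyma Ets1, spleen Ets1 and spleen Grk2 tables. Rps6, the small subunit protein that is phosphorylated by S6 kinase, was listed at 0 in all 12 libraries of both Ets1 tables, as were Rpl8 and both rows of Rpl7a. Every dividing cell makes these proteins, so a row listed at 0 is reported only as such. Of the 18 rows that passed in no table, 13 lie on the chromosome that RefSeq gives for their name, among them Rpl12, Rpl30, Rps20, Rps25 and Rps9. Rpl38 was represented by a row of 214 bp on another chromosome and did not pass. Rpl22, Rps14 and Rps19 were not analysed here.

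For 14 of the 82 rows (9 large, 5 small) the chromosome in the files (assembly Rnor_6.0) is not that of the RefSeq gene of the same name, and these rows span 214 to 973 bp, as a processed copy without introns would. They are called copy rows here, and reads on them may stem from the parent gene. Copy rows held 6.26% to 8.39% of the ribosomal protein reads in the 12 libraries of the Ets1 tables and 1.51% to 1.75% in the 6 of the Grk2 table.

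For Rps4x, the X-linked gene of a small subunit protein, 99.5% to 100% of the reads of that name in the Ets1 tables and 90.8% to 98.6% in the Grk2 table were on a row of 973 bp on chromosome 4 (chr4:35729627-35730599, minus strand), while the X row held at most 12 reads in any library. For Rps10, the chromosome 6 row of 499 bp (chr6:75429728-75430226, plus strand) held 97.4% to 99.5% and 93.2% to 97.9%. Rps27a, which is made as a fusion with ubiquitin, had 98.2% to 100% and 91.7% to 97.7% of its reads on the chromosome 5 row of 546 bp (chr5:138628481-138629026, minus strand). Nearly all reads of these 3 names thus lay on a copy row in each table.

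Rpl21 and Rpl32 differed between the experiments. The X row of Rpl21 held 53.7% to 73.7% of that name's reads in the parenchyma and 60.2% to 68.9% in the spleen Ets1 libraries, against 2.82% to 10.2% in the Grk2 table. The chromosome 6 row of Rpl32 held 76% to 89.8%, 57.1% to 95.2% and 0% to 44.4% in the same order. These names had few reads, between 38 and 164 per library for Rpl21 and between 9 and 60 for Rpl32. Whether a difference in counting lies behind the shift was not tested.

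**Figure D1:**
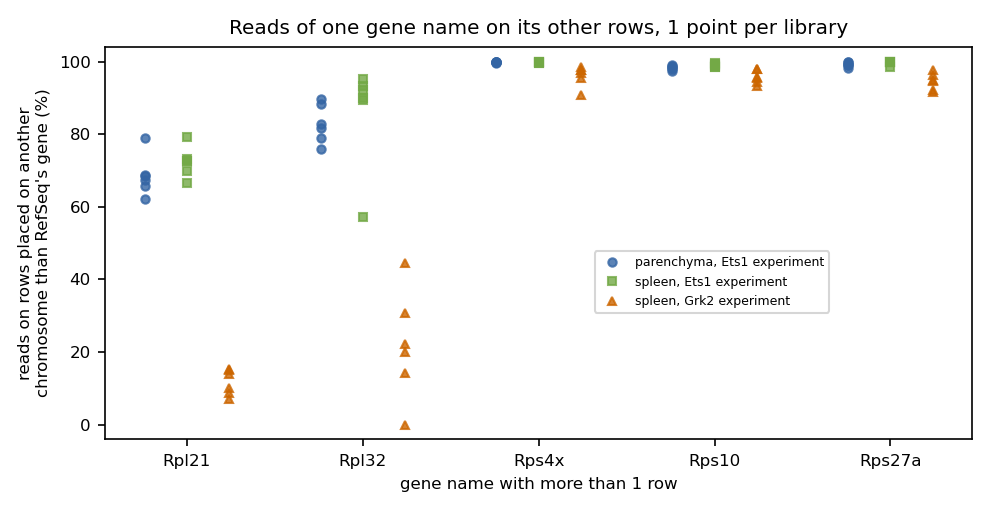
Share of the reads of a gene name (vertical axis, percent) that lay on rows placed on another chromosome than the RefSeq gene, for the 5 names with such a second row (horizontal axis), 1 point per library and 1 colour per table. Rps4x, Rps10 and Rps27a sit above 90% in all tables, while the points of the Grk2 table for Rpl21 lie far below those of both Ets1 tables.

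Control cells of the spleen also differed between the experiments in the level of single rows, on scales that the authors set separately. The chromosome 4 row of Rps4x had a control mean of 1081 normalized counts in the Ets1 and 127 in the Grk2 experiment, Rpl10 had 109 and 455, and Rpl27 had 17.2 and 127. Of the 50 rows tested in both, 22 (44%) differed by more than 2-fold, against 23.1% of the 6490 genes tested in both. For this reason levels are compared below only within a table, as KO against control.

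The share of all reads that fell on ribosomal protein genes was 2.26%, 2.12% and 2.04% in control and 1.89%, 1.85% and 2.02% in Ets1-KO libraries of the parenchyma (replicates 1 to 3). Each KO library lay below each control library. Among reads outside the mitochondrial genes, which took 14.1% to 27.4% of a library, the shares were 3.06%, 2.92% and 2.74% against 2.54%, 2.53% and 2.74%, and there the highest KO library reached the lowest control library. In the spleen the shares of all reads were 2.10%, 2.50% and 2.07% in control and 2.74%, 2.66% and 2.22% in Ets1-KO libraries, with overlap, since KO replicate 3 lay below control replicate 2. The Grk2 experiment had 2.56%, 2.53% and 2.50% in control and 2.64%, 2.42% and 2.52% in KO libraries, with group means of 2.53% and 2.52%.

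**Figure D2:**
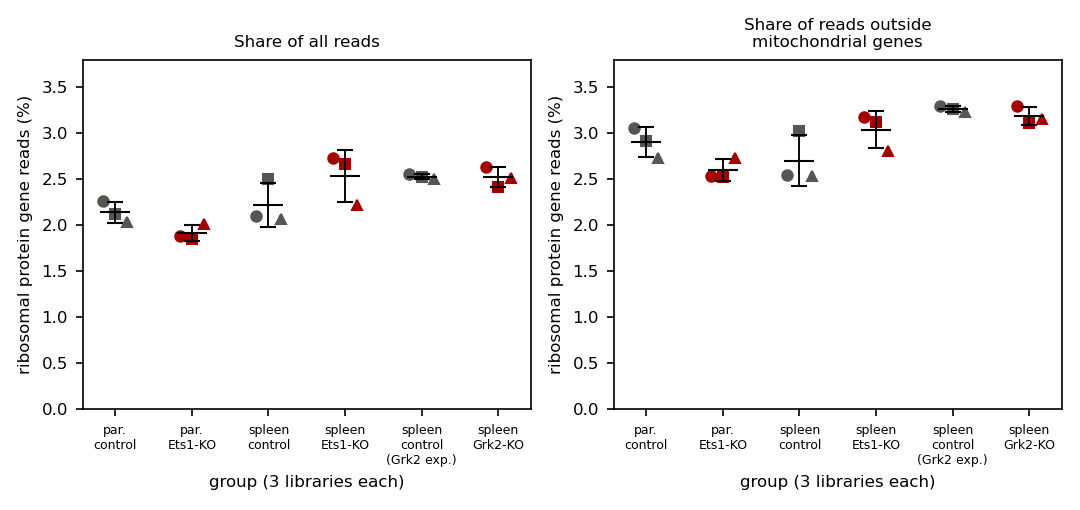
Share of reads on ribosomal protein genes (vertical axis, percent) in the 6 groups (horizontal axis), as a share of all reads on genes and of reads outside mitochondrial genes, with 1 point per library, the group mean and its SD (n = 3). Among all reads the parenchyma Ets1-KO libraries lie at 1.85% to 2.02% below the controls at 2.04% to 2.26%, whereas the spleen groups overlap.

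In the spinal cord parenchyma, where effector T cells enter the tissue, ribosomal protein genes stood slightly lower in Ets1-KO than in control cells, and 4 of 56 passed the test. The median log2 fold change was -0.16 in the large subunit (34 rows), -0.16 in the small subunit (22 rows), and -0.03 over all 7002 genes. Of the 56 rows, 47 had a log2 fold change below 0 (54.6% of all genes did). Rps2 (-0.40) and Rps28 (-0.15) passed the minimum only through the control group, so their direction adds no support, and without them 45 of 54 rows lay below 0. The 4 that were called lower, 2 in each subunit and among them Rpl15 and Rpsa, had a limma adjusted p below 0.05, which 2.96% of all genes reached in that direction. None was called higher (2.27% of all genes), by limma, by edgeR or by DESeq2, and none had an unadjusted p below 0.05 in that direction (7.07% of all genes). At an unadjusted p below 0.05, 20 rows were lower (9.87% of all genes). In 15 rows every KO library lay below every control library (10.5% of all genes), and in none did every KO library lie above (7.87%).

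Rpl15 (chr15:8189252-8192152, plus strand), a protein of the large subunit, had 2096, 2119 and 1969 normalized counts in control and 1679, 1842 and 1806 in Ets1-KO libraries of the parenchyma (log2 fold change -0.22, SE 0.07, adjusted p = 0.042). The groups did not overlap, and replicate 3 showed the smallest difference between its KO and its control library.

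Rpsa (chr8:128806128-128809986, plus strand), which encodes a small subunit protein also known as a laminin receptor, had 569.8, 607 and 514 normalized counts in control and 406, 444 and 474 in KO libraries of the parenchyma (log2 fold change -0.35, SE 0.09, adjusted p = 0.0029). Every KO library again lay below every control library.

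Several other members with well described roles did not pass in the parenchyma. Rplp0, the base of the stalk, had a log2 fold change of -0.22 (adjusted p = 0.063). Rpl5 and Rpl11, which bind the 5S rRNA and can inhibit Mdm2, had -0.34 (adjusted p = 0.085) and -0.18 (adjusted p = 0.30). Rpl10, which joins the large subunit late in assembly, had -0.31 (adjusted p = 0.21), Rpl13a had -0.22 (adjusted p = 0.41), and the copy row of Rpl39, a protein of the exit tunnel, had 0.07 (adjusted p = 0.95). The chromosome 4 row of Rps4x was at -0.23 (adjusted p = 0.053).

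The 4 calls rested on particular libraries and on the fit. Without replicate 1 or without replicate 2 (the KO and control library of that number) no row was called, without replicate 3 there were 12, without the replicate block 2 (Rpsa remained and Rpl15 did not), with eBayes fitted without a trend 0, with DESeq2 0 and with edgeR the same 4. Over all genes, 3.22% were called without replicate 1, 2.33% without replicate 2 and 3.96% without replicate 3. Without the block 2.86% of all genes were called, without a trend 3 of 7002, and with DESeq2 1.2%. The medians of the 3 pairs were -0.23, -0.21 and -0.05. Among rows with a mean of at least 100 the median was -0.17 (37 rows), against -0.02 for all genes of that level (2186). The KO libraries of the parenchyma held 1246779 to 1411767 reads and the control libraries 1437169 to 1546206, without overlap, and with reads thinned to the shallowest library 3 rows were called. The myeloid sums given above were also higher in KO libraries, with overlap, and their part in the result was not tested.

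In the spleen the direction was the other one: ribosomal protein genes stood higher in Ets1-KO than in control cells, with a larger median in the small subunit (a difference between subunits that was not tested), and 8 of 54 passed the test. The median log2 fold change was 0.22 in the large subunit (33 rows), 0.44 in the small subunit (21 rows) and 0.00 over all 6979 genes. Of the 54 rows, 46 had a log2 fold change above 0 (50.1% of all genes did). The rows called higher were Rpl24, Rpl9 and Rpl34 of the large and 5 rows of the small subunit, among them Rps3, Rps4y2, Rps24 and Rps27a, in a direction in which 1.02% of all genes were called. None was called lower (1.2% of all genes), by limma, edgeR or DESeq2, and none had an unadjusted p below 0.05 in that direction (7.45%). An unadjusted p below 0.05 with a higher level was found for 27 rows (6.65% of all genes). In 18 rows, 7 large and 11 small, every KO library lay above every control library (8.04% of all genes), and in none below (8.88%). Rps4y2 and Rps7 passed the minimum only through the KO group, so neither adds support to a shift of the group. Without these rows 7 of 52 were called higher, 44 lay above 0, and the median of the small subunit was 0.40. At an unadjusted p below 0.05, 26 were then higher, and 16 had every KO library above every control library.

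Rpl24 (chr11:47116885-47122095, minus strand), whose protein bridges the large and the small subunit, stood at 750.4, 841 and 652 normalized counts in control and at 1259, 1091 and 1101 in Ets1-KO libraries of the spleen. This was 1.54-fold higher (log2 fold change 0.63, SE 0.11, adjusted p = 0.0033). Rpl34 (chr2:235850333-235852708, minus strand) had 122.5, 145 and 158 in control and 217, 189 and 214 in KO libraries (log2 fold change 0.54, SE 0.14, adjusted p = 0.034). Both genes were higher in all 3 pairs, and the groups did not overlap.

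Rps3 (chr1:164435877-164441167, minus strand), which lines the mRNA entry of the small subunit, had 624, 657 and 619 normalized counts in control and 983, 868 and 810.5 in KO libraries of the spleen (log2 fold change 0.48, SE 0.11, adjusted p = 0.018). Rps24 (chr16:757402-762075, plus strand) had 299.7, 265 and 191 in control and 383, 365 and 308 in KO libraries (log2 fold change 0.50, SE 0.12, adjusted p = 0.028). The human counterpart of Rps24 is mutated in Diamond-Blackfan anaemia. The KO libraries lay above all control libraries in both genes, by a narrow margin in Rps24.

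Both called copy rows moved the same way. The chromosome 5 row of Rps27a had 180.5, 143 and 218 normalized counts in control and 344, 239 and 270.4 in KO libraries of the spleen (log2 fold change 0.66, SE 0.13, adjusted p = 0.0085). The row of Rpl9 of 690 bp on chromosome 1 (chr1:77829710-77830399, minus strand) had 66.7, 87.1 and 42.3 against 122, 120.3 and 101 (log2 fold change 0.85, SE 0.18, adjusted p = 0.0088). The 9 copy rows tested had a median of 0.44, and the 45 rows on the RefSeq chromosome had a median of 0.27 with 6 called.

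Rps4y2, a paralogue of Rps4x with a row of 935 bp on chromosome 4 (chr4:182745447-182746381, plus strand), was counted with 4, 2 and 0 reads in control and 32, 30 and 42 reads in Ets1-KO libraries of the spleen. These are 4.38, 2.15 and 0 against 21.9, 18.6 and 26.2 normalized counts (log2 fold change 3.17, SE 0.55, adjusted p = 0.0033, on the scale of log2 of the normalized count plus 1). As given above, it passed the minimum only through the KO group and adds no support to a shift of the group. In the parenchyma its mean of 9.75 was below the minimum, with 5.60, 5.64 and 2.95 in control and 17.2, 19.2 and 7.93 in KO libraries (log2 fold change 1.41, SE 0.45, adjusted p = 0.14 in a fit without the minimum). In the Grk2 experiment it had 11.9, 7.76 and 10.1 in control and 6.99, 4.14 and 8.19 in KO libraries. It is the only row of that name, and how many of its reads belong to a related gene cannot be seen in these counts.

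The 4 genes called in the parenchyma were not called in the spleen, and of them only Rpsa was called in the test of the difference between the tissues given below. Rpl15 had a log2 fold change of 0.14 in the spleen and Rpsa of 0.28 (adjusted p = 0.22). Rplp0, Rpl5, Rpl11 and Rpl10 had 0.08, 0.01, 0.07 and 0.23, and Rpl13a had 0.55 (adjusted p = 0.10).

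**Figure D3:**
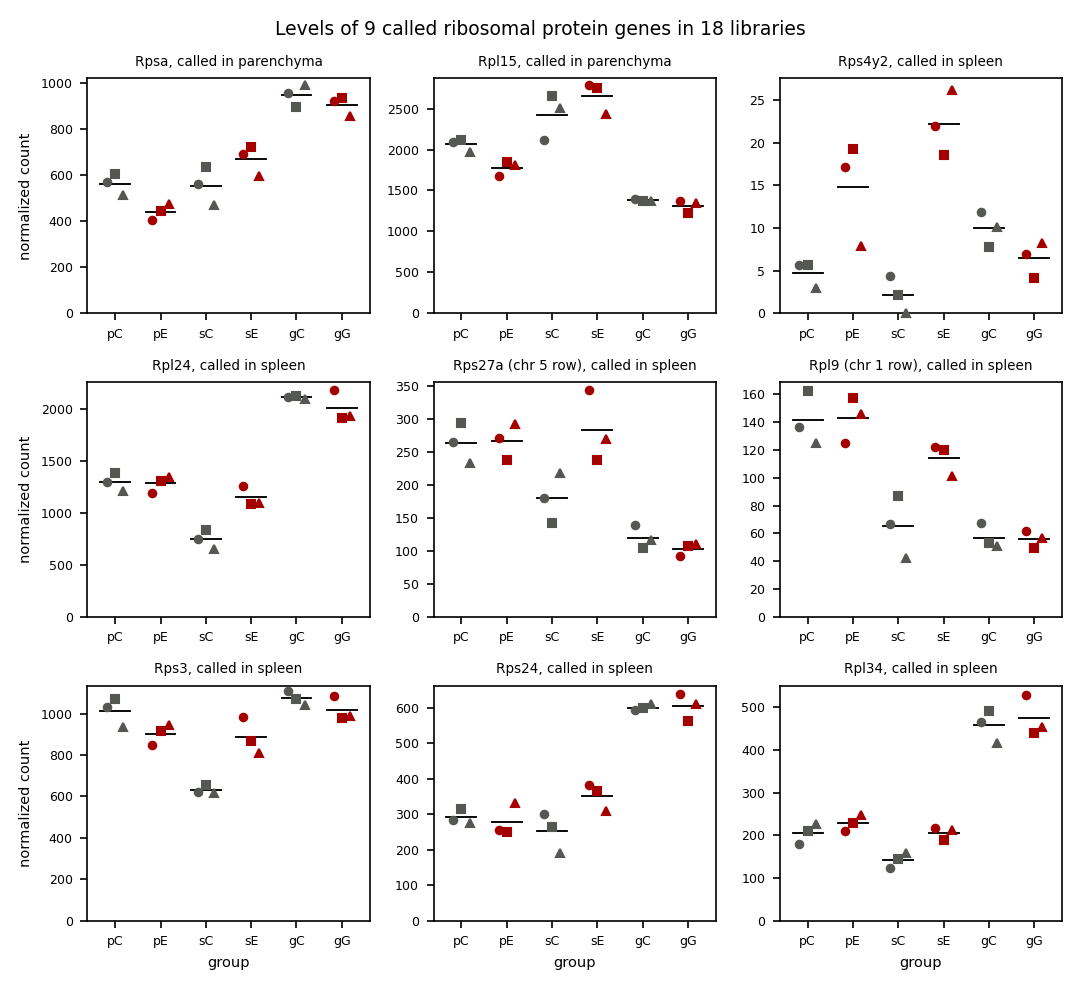
Normalized counts (vertical axis, from 0) in each of the 18 libraries by group (horizontal axis) for 9 of the 12 rows called in the parenchyma or in the spleen Ets1 comparison, 1 panel per row, with group means as lines and the replicates as circles, squares and triangles. Groups are pC and pE (parenchyma control and Ets1-KO), sC and sE (spleen control and Ets1-KO), and gC and gG (spleen control and Grk2-KO), with controls in grey and KO libraries in red. Rpl24 shows 652 to 841 counts in spleen controls and 1091 to 1259 in spleen Ets1-KO libraries, whereas its groups overlap in the parenchyma. Levels are on a separate scale in each experiment.

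The spleen calls also rested on 1 pair of libraries and on the fit. Without replicate 1 no row was called, without replicate 2 there were 15, without replicate 3 there were 10 (Rps24 was lost), and the medians of the 3 pairs were 0.44, 0.15 and 0.29. Over all genes, 3 of 6968 were called without replicate 1, 3.32% without replicate 2 and 3.2% without replicate 3. Without replicate 1, 44 ribosomal protein rows lay above 0 and 10 below, with a median of 0.23. Without the replicate block 4 were called (Rpl24, Rps3, Rps4y2 and Rps27a), with eBayes without a trend 0, with DESeq2 3 (Rpl24, Rps3 and Rps27a), with edgeR the same 8, and with TMM scaling 13. Over all genes, 1.02% were called without the block, 0 of 6979 without a trend, 0.745% with DESeq2 and 2.95% with TMM scaling. The Ets1-KO libraries of the spleen were deeper (1909862 to 2248258 reads) than the control libraries (898092 to 1213485). With all libraries thinned to the depth of the shallowest, the same 8 rows and Rps27 were called. Mitochondrial genes took 17.3% to 18.6% of reads in control libraries and 14.1%, 14.9% and 21.0% in KO libraries. Ets1-KO replicate 3, the library with the highest of these shares, stood apart from the other two, with a chi-square per degree of freedom over the tested genes of 9.66 and 10.04 against replicates 1 and 2, whereas the other pairs within a group, in all 6 groups, had at most 4.44. The summed T cell markers were 2897 to 3171 normalized counts in control and 3200.3 to 3386 in KO libraries, and the part of these differences in the result was not tested.

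In Grk2-KO cells of the spleen no ribosomal protein gene passed the test. Median log2 fold changes were -0.02 in the large subunit (34 rows) and -0.03 in the small subunit (22 rows), against 0.02 over all 6985 genes, and 34 of 56 rows lay below 0 (46% of all genes did). No row was called by limma (1.56% of all genes in either direction), by edgeR or by DESeq2. At an unadjusted p below 0.05 none was higher (6.61% of all genes) and 1 was lower (3.81%), Rpl27, at 137, 133 and 112 normalized counts in control and 100.4, 102.5 and 114 in KO libraries (log2 fold change -0.26, adjusted p = 0.43), which is named because it was the only such row. In 1 row every KO library lay above every control library (7.59% of all genes) and in 1 row below (4.62%). The log2 fold changes ran from -0.58 to 0.27, or from -0.30 without the chromosome 4 row of Rpl32, which passed the minimum only through the control group, and the medians of the 3 pairs were -0.00, -0.08 and -0.03. The 95% interval of the log2 fold change was -0.21 to 0.05 for Rpl24 and -0.22 to 0.06 for Rps3.

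**Figure D4:**
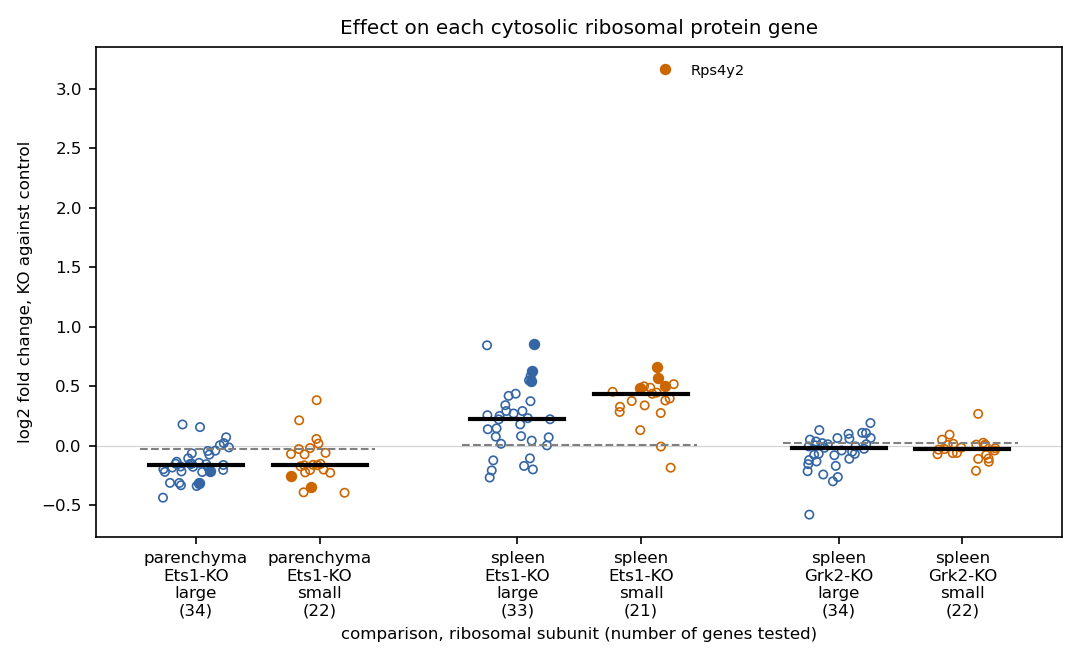
Log2 fold change of KO against control (vertical axis) of each tested ribosomal protein gene, by comparison and subunit (horizontal axis), with the median of each subunit as a solid line, the median of all genes as a dashed line, and called rows as filled points. The medians lie at -0.16 and -0.16 in the parenchyma Ets1, at 0.22 and 0.44 in the spleen Ets1 and at -0.02 and -0.03 in the spleen Grk2 comparison. Without Rps4y2 and Rps7, which passed the minimum only through the KO group, the small-subunit median in the spleen Ets1 comparison was 0.40.

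The effect of Ets1 editing differed between the tissues for 8 of the 52 rows tested in both. The difference was computed on the log2 ratios of the pairs, as parenchyma minus spleen, and is negative where a gene stood lower in the parenchyma or higher in the spleen. Its median was -0.38 in the large subunit (33 rows) and -0.56 in the small subunit (19 rows), against -0.04 over 6520 genes. It was below 0 in 48 of 52 rows (55% of all genes). Rps7 (-0.29), which passed the minimum in the spleen only through the KO group, is among the 48 and adds no support. The 8 rows called were 2 of the large and 6 of the small subunit, in a direction in which 1.43% of all genes were called, and none was called in the other (0.675%), by limma or by edgeR. At an unadjusted p below 0.05, 31 rows were negative (8.63% of all genes) and none was positive (5.12%). In 37 rows the log2 fold change was below 0 in the parenchyma and above 0 in the spleen, in 8 it was below 0 in both, in 7 above 0 in both, and in none was it above 0 in the parenchyma and below 0 in the spleen.

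Among genes on their RefSeq chromosome, the difference was called for Rps3 (-0.64, SE 0.13, adjusted p = 0.0052), Rpl24 (-0.64, SE 0.14, adjusted p = 0.0055), Rpsa (-0.63, SE 0.14, adjusted p = 0.0080) and Rps27 (-0.60, SE 0.15, adjusted p = 0.023). These genes came to the difference by different routes. Rpl24 had 1303, 1382 and 1217 normalized counts in control and 1197, 1313 and 1349.9 in KO libraries of the parenchyma, so that its groups overlapped there (log2 fold change -0.02). Rps3 was at -0.16 in the parenchyma and 0.48 in the spleen, and Rpsa at -0.35 and 0.28. Rps27 (chr2:189572175-189573280, minus strand) had 804, 805 and 792 in control and 662, 714 and 768 in KO libraries of the parenchyma, and 503, 692 and 489 in control and 787, 698 and 768 in KO libraries of the spleen. In neither tissue did its groups overlap, and in neither was it called (adjusted p = 0.26 and 0.065).

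The other 4 calls were on copy rows, of which 8 were tested: Rps4x on chromosome 4 (-0.56, SE 0.14, adjusted p = 0.025), Rpl9 on chromosome 1 (-0.83, SE 0.22, adjusted p = 0.030), Rps10 on chromosome 6 (-0.58, SE 0.15, adjusted p = 0.034) and Rps27a on chromosome 5 (-0.64, SE 0.18, adjusted p = 0.045). The Rps10 row had 729.5, 695 and 689.96 normalized counts in control and 608, 586 and 639 in KO libraries of the parenchyma, against 417, 566 and 490.5 in control and 744, 608 and 558 in KO libraries of the spleen. The median difference was -0.58 over the 8 copy rows and -0.40 over the 44 other rows, 4 of which were called. Human RPS10 is another gene mutated in Diamond-Blackfan anaemia.

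Without replicate 1 no difference was called, and the medians were -0.24 in the large and -0.31 in the small subunit. Leaving out replicate 2 gave 7 calls, with Rpsa and Rps27a lost and 1 row gained (1.06% of all genes). Leaving out replicate 3 gave 9, with Rps27 and Rpl9 lost and 3 rows gained (1.72%). Without the replicate block 2 were called (Rps3 and Rpl24), with eBayes without a trend 0, and with quantile normalization 5. Over all genes, 0.432% were called without replicate 1, 0.721% without the block, 2 of 6520 without a trend and 1.63% with quantile normalization. The tissues differ in the depth and the mitochondrial share of their libraries as given above.

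**Figure D5:**
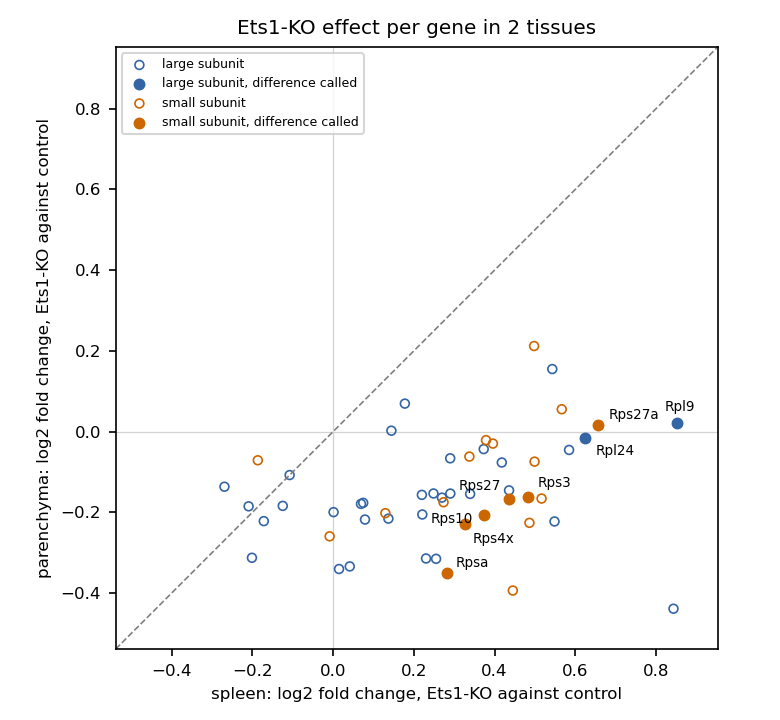
Log2 fold change of Ets1-KO against control in the parenchyma (vertical axis) against that in the spleen (horizontal axis) for the 52 ribosomal protein genes tested in both tissues, with the subunits in separate colours and the 8 rows whose difference was called labelled. Most points (37) lie to the right of 0 and below 0, and none lies to the left of 0 and above it.

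In the spleen the effects of Ets1 and Grk2 editing, each against its own controls, were also compared directly. The difference of the log2 ratios, Ets1 minus Grk2, had a median of 0.20 in the large subunit (30 rows) and 0.45 in the small subunit (20 rows), against -0.01 over 6490 genes, and was above 0 in 44 of 50 rows (48.5% of all genes). It was called for 3 rows, in a direction in which 0.724% of all genes were called: Rpl24 (0.70, SE 0.13, adjusted p = 0.0015), the chromosome 5 row of Rps27a (0.87, SE 0.19, adjusted p = 0.0085) and Rps3 (0.56, SE 0.13, adjusted p = 0.011). None was called in the other direction (1.22%), by limma or by edgeR, and none had an unadjusted p below 0.05 there (7.58%), while 22 did in the direction of the calls (5.35%). Among the 44 rows above 0 was Rps7 (0.53), which passed the spleen Ets1 minimum only through the KO group, so it adds no support. Without replicate 1 no row was called, without replicate 2 there was 1, without replicate 3 there were 2, without the replicate block 1 (Rpl24), and with eBayes without a trend 0. Over all genes, 0.465%, 0.294% and 0.878% were called without replicate 1, 2 and 3. Without the block 0.663% of all genes were called, and without a trend 0 of 6490. The experiments differ in more than the edited gene, so the edited gene and the experiment cannot be told apart.

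Other genes of translation were read from lists chosen for their roles. The genes of the mitochondrial ribosome (Mrpl and Mrps), which serves the organelle, had medians of 0.04 (62 genes), 0.07 (62) and 0.06 (63) in the parenchyma Ets1, spleen Ets1 and spleen Grk2 comparisons. None was called by limma, edgeR or DESeq2, and at an unadjusted p below 0.05 there were 5 higher in the parenchyma, 6 higher in the spleen Ets1 and 8 higher and 2 lower in the Grk2 comparison. The shares of all genes were 7.07%, 6.65%, 6.61% and 3.81% in the same order.

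Of 16 translation factors, many of them with TOP mRNAs, 12 were tested, with medians of -0.14 in the parenchyma, 0.04 in the spleen Ets1 and 0.05 in the Grk2 comparison. In the parenchyma 2 of the 12 were called lower (2.96% of all genes) and 1 higher (2.27%). There Pabpc1, the poly(A)-binding protein, fell from 6421 ± 17.4 to 5456 ± 297 normalized counts (log2 fold change -0.24, adjusted p = 0.0076). Eef2, the elongation factor that drives translocation, fell from 1006 ± 30.6 to 846 ± 9.66 (log2 fold change -0.25, adjusted p = 0.031). Eef1b2, the exchange factor of Eef1a, rose from 240.1 ± 8.86 to 300.5 ± 33.7 (log2 fold change 0.32, adjusted p = 0.044). Of 16 alternatives, the call was lost in 4 for Pabpc1, in 10 for Eef2 and in 8 for Eef1b2. Without the replicate block and with DESeq2 the call of Pabpc1 alone remained, and without replicate 1 or without replicate 2 none did. In the spleen comparisons no translation factor was called by limma, edgeR or DESeq2. An unadjusted p below 0.05 was found for 2 in the Ets1 (1 higher, 1 lower) and 2 in the Grk2 comparison (higher). At that threshold 6.65% of all genes were higher and 7.45% lower in the Ets1 comparison, and 6.61% higher in the Grk2 comparison.

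Among 9 further ribosomal protein genes outside the name rule, Rps27l, a paralogue of Rps27 that p53 can induce, rose in the parenchyma from 97.6 ± 6.37 to 132.5 ± 25.2 normalized counts (log2 fold change 0.42, SE 0.14, adjusted p = 0.046) and was the only one called, a call that was lost in 10 alternatives. Rps27l was 1 of 5 tested there, in a direction in which 2.27% of all genes were called. In the spleen Ets1 comparison it had 0.53 (adjusted p = 0.067). Of 32 genes of ribosome assembly, 27, 27 and 28 were tested, with medians of 0.10, -0.07 and -0.06. Nolc1, a nucleolar chaperone, was called higher in the parenchyma (log2 fold change 0.51, adjusted p = 0.00053) and Nob1, the nuclease that trims the 18S rRNA, in the spleen Ets1 comparison (0.75, adjusted p = 0.014). Each was 1 of 27 tested, while 2.27% (parenchyma) and 1.02% (spleen Ets1) of all genes were called higher. Neither was called with DESeq2 or without a trend, and Nob1 was not called without replicate 1. Of 19 regulators of ribosome synthesis and mTOR signalling, Ddit4, an mTOR inhibitor, was called higher in the spleen Ets1 comparison (0.49, adjusted p = 0.044) and no other was called by limma in the 3 comparisons. Ddit4 was 1 of 16 tested there, while 1.02% of all genes were called higher. The call of Ddit4 was lost without the replicate block, with DESeq2, without a trend, without replicate 1 and without replicate 3.

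Proliferation genes moved beside these groups. Of 14 such genes, 9 were called lower in Ets1-KO cells of the spleen, a direction in which 1.2% of all genes were called, with a median log2 fold change of -0.61, among them Mcm7 (-0.75), Mcm2 (-0.71), Mki67 (-0.67) and Top2a (-0.63). In the parenchyma 2 of 10 tested were called lower (2.96% of all genes), Top2a (-1.16) and Mki67 (-1.15). In the Grk2 comparison 2 of 14 were called higher (65 of all 6985 genes), Cdk1 (0.54) and Top2a (0.36). In the spleen Ets1 comparison 5 were called without the replicate block, 4 with DESeq2, 6 with thinned reads, and none without a trend or without replicate 1. Over all genes, 1.02% were called there without the block, 0.745% with DESeq2 and 1.86% with thinned reads. Without a trend 0 of 6979 were called, and without replicate 1 it was 3 of 6968. The calls in the parenchyma were lost without a trend alone among the 16 alternatives, and both Grk2 calls were lost without the replicate block, without a trend and without replicate 2. Whether the ribosomal protein genes moved with the share of cycling cells was not tested.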

How the data were processed

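The 3′ mRNA reads of 18 rat libraries were aligned by the authors to Rnor_6.0 with STAR (2.7.2b), counted with HTSeq (1.0.0) and scaled with DESeq2 (2.11.40.7, poscounts), tools named in the submitters' processing notes and the methods. The strand and multi-mapping settings are not given in the sources used here. The signal values deposited by the authors are counts divided by size factors, in 3 tables scaled separately, and 100% of the values were whole reads times 1 step per library (tolerance 0.01). Deposited columns of the authors' fold changes and p-values, and 8 columns of human samples, were not used.

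The test was limma (3.58.1) on log2(normalized count + 1), for genes averaging at least 10 (eBayes with a trend, replicate number as a block, two-sided, Benjamini-Hochberg over all genes tested, threshold 0.05). A fold change on this scale understates the change of low genes. Differences of effects were tested on the log2 ratios of pairs. Each gene had 2 residual degrees of freedom, beside prior degrees of freedom of 22.0 (spleen Ets1), 141 (Grk2) and not finite (parenchyma). In the parenchyma the variance of a gene was therefore the trend value for its level, and its own spread between libraries had no weight. An exact permutation test of 3 against 3 libraries cannot go below p = 0.1.

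The block follows the study's correction per animal and the co-transfer. The deviations of same-numbered libraries correlated with r of 0.13, 0.16 and -0.00 (parenchyma), 0.09, 0.08 and 0.18 (spleen Ets1) and 0.14, 0.01 and 0.12 (Grk2). The labels name no animal.

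Members and lists were chosen with earlier results of these data known. Named genes were the called members that changed alike in all 3 pairs, the 3 most and 3 least abundant per subunit, members with a known role or several rows, and called genes of the lists. Some genes that the rule names are counted but not reported here. Rpl27, Rps7, the untested members and Rps4y2 outside the spleen Ets1 comparison were named after their values were seen. Alternatives were no block, pseudocounts of 0.1 and 5, no minimum and a minimum of 50, 4 other scalings, eBayes without a trend, edgeR (4.0.16) and DESeq2 (1.42.0) on the recovered reads, each replicate left out, and thinned reads, the last chosen after seeing the data. Scripts were first checked on simulated data.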

Additional observations from a re-analysis of the deposited data

Results flagged for a closer look

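The Ets1-KO effect differed between parenchyma and spleen, by a limma test of the difference (parenchyma minus spleen, log2, adjusted over 6520 genes), for Rps3 (-0.64), Rpl24 (-0.64), Rpsa (-0.63), Rps27 (-0.60), the chromosome 4 row of Rps4x (-0.56), the chromosome 1 row of Rpl9 (-0.83), the chromosome 6 row of Rps10 (-0.58) and the chromosome 5 row of Rps27a (-0.64). None of these differences was called without replicate 1, where 0.432% of all genes were called (2.1% with all replicates). Those of Rpsa and Rps27a were also lost without replicate 2, and those of Rps27 and Rpl9 without replicate 3.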

How the results depend on the processing

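The direction of each subunit's median held under all 16 alternatives (15 for a difference of effects), except that without replicate 2 both Grk2 medians were just above 0, and 28 of 58 Grk2 rows then lay below 0. The counts changed as follows. For rows lower in the parenchyma Ets1 comparison (4 as reported), the fit with no replicate block gave 2, no minimum 2, no trend 0, DESeq2 0, and leaving out 1 replicate 0 to 12. Of all genes, 1.54% were called there with no minimum, against 5.23% as reported. For rows higher in the spleen Ets1 comparison (8 as reported, 7 without Rps4y2 and Rps7) the values were 4 with no replicate block, 13 with TMM scaling, with or without ribosomal protein and mitochondrial genes, 0 with no trend, 3 with DESeq2 and 0 to 15 with a replicate left out, while the small-subunit median ran from 0.29 to 0.52. Of all genes, 2.95% were called with TMM scaling and 2.99% with TMM scaling without those genes, against 2.22% as reported. For the tissue difference (8 as reported) the count was 2 with no replicate block, 5 with quantile normalization, 0 with no trend and 0 to 9 with a replicate left out, and the medians ran from -0.43 to -0.24 (large) and from -0.64 to -0.31 (small). For Ets1 minus Grk2 (3 as reported) it was 1 with no replicate block, 5 with a pseudocount of 5, 6 with a minimum of 50, with upper quartile and with either TMM scaling, 0 with no trend and 0 to 2 with a replicate left out. Of all genes, 1.94% were called there as reported, 2.14% with the pseudocount of 5 and 4.17% with the minimum of 50. The shares were 2.06% with upper quartile scaling and 2.1% and 2.08% with TMM scaling, with and without ribosomal protein and mitochondrial genes. With no trend the calls over all genes were 3 (parenchyma), 0 (spleen Ets1), 2 (tissue difference) and 0 (Ets1 minus Grk2). The numbers pair the libraries only by the co-transfer design, since not every same-numbered pair correlated above 0.1, and in 7 of 9 pairs a library correlated best with its own number. Depth limits rows near 10 normalized counts, and 18 rows could not be tested at all.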
